A study of Mus musculus with 9 samples.

Results

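The 3 D cyclins (Ccnd1, Ccnd2 and Ccnd3), their kinase partners Cdk4 and Cdk6, the Myc family genes Myc and Mycn, and the Myc antagonist Mxd1 were followed through mouse gut organoids. They were chosen by name, as 8 of the 23955 rows of the count table. RNA was sequenced from 3 groups of 3 organoid cultures: MIN, grown from normal-looking gut tissue next to the adenomas, adenoma, grown from the adenomatous polyps, and adenoma organoids treated with the NSAID sulindac. All 9 came from Apc Min/+ mice, so the MIN organoids carry the mutated Apc allele too, and all were cultured with Noggin, EGF, bFGF, R-spondin1 and B27, the R-spondin1 being an activator of Wnt signalling that is present in every group. The labels call the replicates biological without saying whether each came from its own mouse, so the p-values below measure only the spread between these cultures, which may be technical. Neither a dose nor a time nor a vehicle is stated for sulindac in the organoids.

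D cyclins are the regulatory subunits of CDK4 and CDK6. The complexes phosphorylate the retinoblastoma protein Rb, which releases E2F transcription factors and lets a cell pass from G1 into S phase, while the INK4 proteins block them. Myc binds DNA together with Max at the E-box sequence CACGTG and activates genes of growth and ribosome production, and the Mxd proteins compete for Max and repress the same kind of site. In the gut epithelium these genes act below Wnt signalling: loss of Apc stabilises β-catenin, Ccnd1 and Myc are textbook β-catenin target genes, and Mxd1 rises as cells leave the crypt and differentiate.

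Cdk4 and Mycn were the members whose start region held several of the motifs searched, so 250 bases before their start are shown. The windows are RefSeq promoter entries on GRCm38.p6, found for 5 of the 8 genes (Ccnd3, Cdk4, Cdk6, Mycn and Mxd1), and the counts themselves were made on mm9. Capitals mark the E-box CACGTG in Cdk4 and the E2F-type matches TTTCGCGC or TTTGGCGC, read on either strand and 2 of them overlapping, in Mycn.
Cdk4, chr10:127063285-127063534, plus strand: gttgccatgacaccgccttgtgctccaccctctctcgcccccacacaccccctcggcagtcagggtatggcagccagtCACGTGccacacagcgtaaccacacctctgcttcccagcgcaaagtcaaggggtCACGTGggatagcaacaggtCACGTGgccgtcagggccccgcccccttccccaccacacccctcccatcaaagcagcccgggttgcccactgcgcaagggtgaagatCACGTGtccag
Mycn, chr12:12941837-12942086, minus strand: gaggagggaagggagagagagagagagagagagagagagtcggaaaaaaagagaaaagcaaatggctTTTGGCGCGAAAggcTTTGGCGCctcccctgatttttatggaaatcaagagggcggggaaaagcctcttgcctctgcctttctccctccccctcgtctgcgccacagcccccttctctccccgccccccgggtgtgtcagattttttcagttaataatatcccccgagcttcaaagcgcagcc
Searched over 250 bases before and 50 after the start, the Cdk4 window held 4 E-boxes, at 172, 118, 98 and 11 bases before it, and 1 TCF/LEF-type match (CTTTGAT or CTTTGAA) at 52. Of all 32817 windows of this length 7.15% held an E-box, and 8 windows, or 0.0244%, held 4 or more. Mycn held 3 E2F-type matches, which 0.814% of windows have at all, and 1 TCF/LEF-type match, which 8.65% have. Cdk6 had 1 E-box, 220 bases before its start, and these letters were not in the windows of Ccnd3 and Mxd1. A match is a run of letters and not a measured binding site.

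The libraries held 30881206 to 48412477 counts, so that the floor of 3 counts lay between 0.0641 and 0.10 CPM (a gene's counts scaled to its library's TMM-adjusted size, edgeR). Of the markers checked, 5 epithelial genes summed to 4462 to 6307 CPM in the MIN cultures and 2900.4 to 3725 CPM in the adenomas. After sulindac they summed to 4005 to 4667 CPM. Cdh1, Krt8 and Vil1 were lower in adenoma than in MIN at an FDR of 1%. Epcam was lower without passing (log2 -0.52, adjusted p = 0.0187, edgeR). Krt18 went the other way, also without passing (log2 0.74, adjusted p = 0.0249, edgeR). Between treated adenoma and MIN, 1 of the 5 was higher and 3 were lower. The sums for other cell types were small and moved with the groups too. The 5 leukocyte genes summed to 3.40 to 4.09 CPM in the MIN cultures, 0.391 to 0.730 CPM in the adenomas and 0.145 to 0.367 CPM after sulindac, and the 3 endothelial genes to 0.342 to 0.572, 0.0562 to 0.168 and 0 to 0.0611 CPM, with Itgam and Pecam1 lower in both adenoma groups than in MIN. In MIN, Itgam alone had a mean of 3.74 CPM of a mean sum of 3.85, and Pecam1 0.399 of 0.426. Ptprc and Cd3e had higher means in adenoma than in MIN, at counts too low to be tested. The 5 mesenchymal genes summed to 0.385 to 0.763, 1.97 to 2.37 and 0.826 to 1.08 CPM, with Pdgfra higher in both adenoma groups than in MIN, Col1a1 lower after sulindac than in adenoma, and Col1a2 and Col3a1 at 0 throughout. The 7 markers of differentiated enterocytes summed to 2627 to 4239.8 CPM in the MIN cultures, 5.002 to 7.03 CPM in the adenomas and 4.89 to 7.36 CPM in sulindac-treated adenoma, and all 7 were significantly lower in both adenoma groups than in MIN. In bulk RNA, fewer cells of a type and less RNA per cell cannot be told apart. Adenoma replicate 3 stood apart from the other adenoma cultures by transcript length, with a median log2 difference of 0.29 for 1969 genes whose longest transcript is up to 2000 bases and of -0.40 for 1459 genes over 6000 bases. Apc itself, with 222, 235 and 117 CPM in the adenoma replicates against 168 to 179 CPM in the MIN organoids and 206 to 234 CPM after sulindac, was low in that culture.

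**Figure D1:**
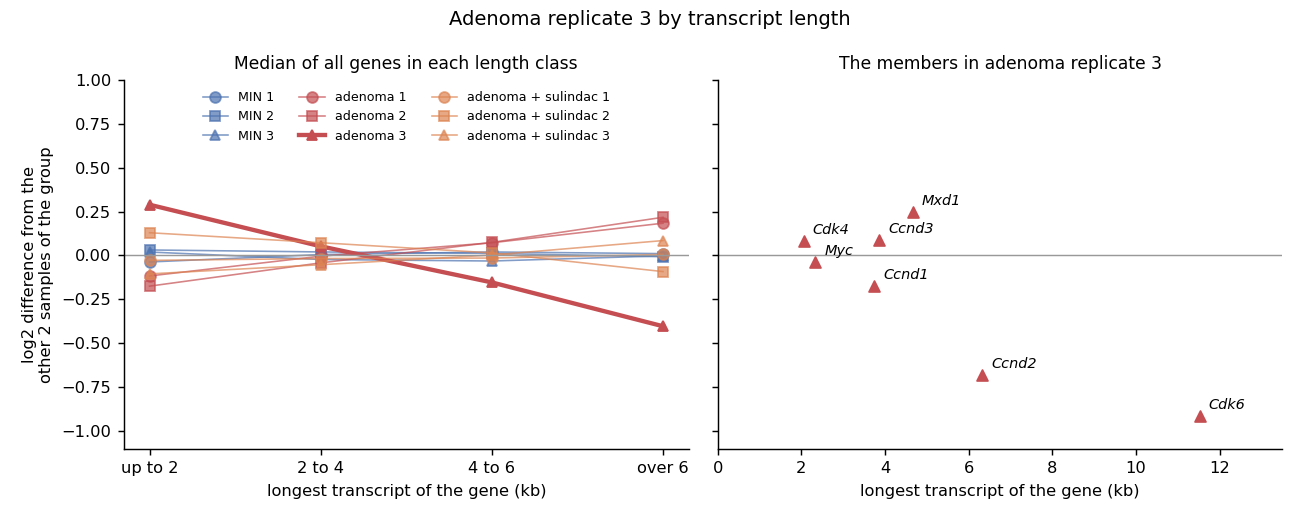
Left, the median log2 difference of each sample from the other 2 of its group (y axis) for genes in 4 classes of transcript length (x axis, kb). Adenoma replicate 3, the thick line, runs from 0.29 down to -0.40, and the other samples stay within 0.22 of 0. Right, the same difference in adenoma replicate 3 for 7 of the members against their own transcript length, with Ccnd2 at -0.68 and Cdk6 at -0.91.

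To learn which of the genes differ between adenoma organoids and those of the adjacent tissue, the groups were compared with edgeR's quasi-likelihood test over 13744 genes at a false discovery rate (FDR) of 1%. Ccnd1 was higher in adenoma, Mxd1 and Mycn were lower, and the other 5 members did not pass. That is 1 of 8 higher, where 18.5% of all genes tested were higher, and 2 of 8 lower, where 20.1% were lower. In the comparison of sulindac-treated with untreated adenoma over 12962 genes, Ccnd3 was higher and Cdk4 lower among the 7 members tested, beside 8.32% of genes higher and 9.10% lower. Against MIN, over 13551 genes, the sulindac-treated organoids had Ccnd1 and Ccnd3 higher and Cdk4, Mxd1 and Mycn lower, beside 23.0% higher and 26.8% lower. Mycn was tested against MIN only through its MIN counts, so it could be called in no other direction. The 3 comparisons share their samples pairwise and are not independent of each other. The median of all genes was -0.01, -0.01 and -0.03 on the log2 scale. It moved to 0.12, -0.18 and -0.05 when counts were scaled by library size alone, and the share of called genes that were higher after sulindac then went from 47.8% to 23.3%.

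**Figure D2:**
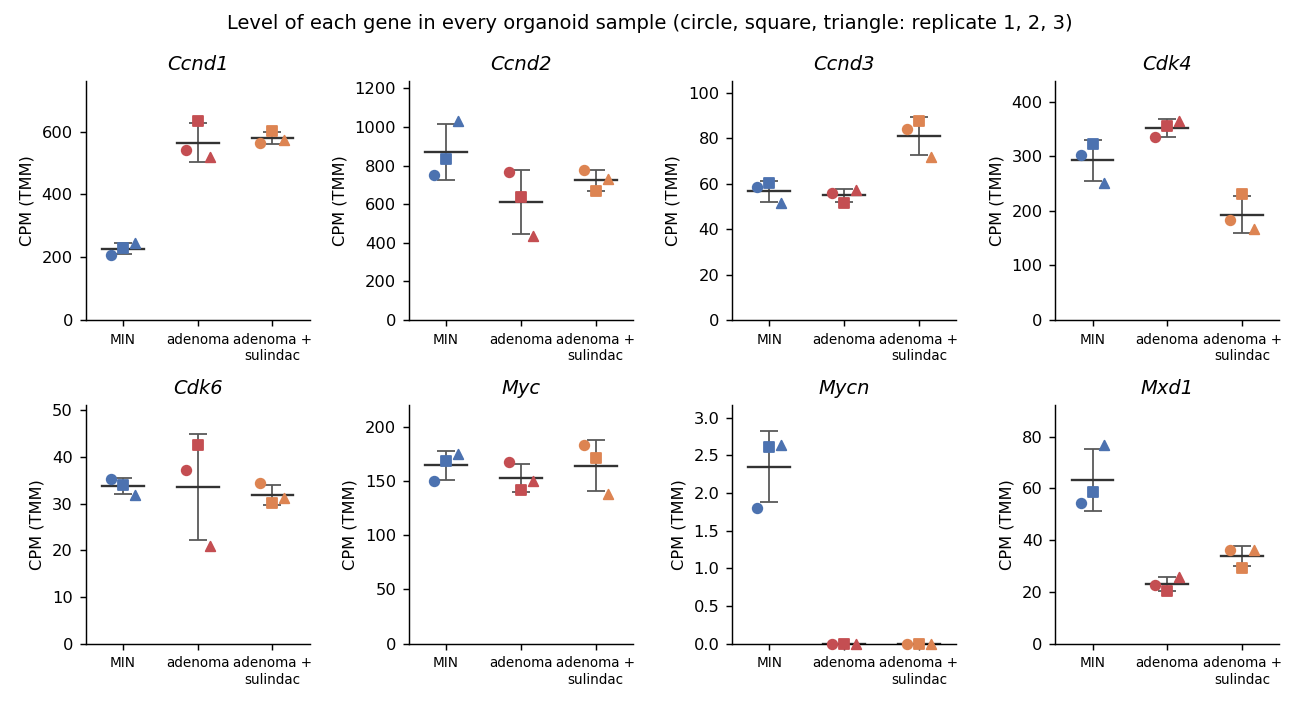
CPM on the TMM scale (y axis) of each member in the 9 organoid samples, by group (x axis), with the mean (line) and SD (bars) of 3 replicates. Ccnd1 separates MIN from both adenoma groups, Cdk4 and Ccnd3 separate the sulindac-treated group, and Mycn has counts in MIN and 0 counts elsewhere.

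Ccnd1, the D cyclin known as a β-catenin target, had 208, 229.7 and 245 CPM in the MIN replicates 1 to 3, 541, 635 and 519 CPM in the adenomas, and 565, 601 and 572 CPM after sulindac. Every adenoma culture, treated or not, lay above every MIN culture, and the treated and untreated ones overlapped. The log2 fold change was 1.31 ± 0.13 (SE) in adenoma against MIN, a 2.49-fold increase (adjusted p = 4.303e-05, edgeR), and 1.34 ± 0.09 in sulindac-treated adenoma against MIN (adjusted p = 4.258e-06, edgeR). Between treated and untreated adenoma it was 0.04 ± 0.11 (adjusted p = 0.801, edgeR).

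Ccnd2, the D cyclin with the most counts in MIN, had 751, 833 and 1031 CPM there, 767, 635 and 435 CPM in the adenomas and 776, 667 and 731 CPM after sulindac. The groups overlapped, and the lowest value was that of adenoma replicate 3, 0.68 below the other adenoma cultures on the log2 scale. The part of its transcript length in this was not tested. The change from MIN to adenoma was -0.51 ± 0.22 (adjusted p = 0.0790, edgeR) and that from adenoma to sulindac 0.25 ± 0.20 (adjusted p = 0.371, edgeR), neither past the threshold. Without adenoma replicate 3 they were -0.31 (adjusted p = 0.1505, edgeR) and 0.046 (adjusted p = 0.7726, edgeR).

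Ccnd3, the third D cyclin, was the only member higher in the sulindac-treated than in the untreated adenomas at this threshold. It had 58.5, 60.2 and 51.4 CPM in the MIN organoids, 55.8, 51.6 and 57.1 CPM in the adenomas, and 84.0, 87.6 and 71.5 CPM after sulindac. All 3 treated cultures lay above the other 6, which overlapped. The increase over adenoma was 1.48-fold (log2 0.57 ± 0.10, adjusted p = 0.004044, edgeR) and that over MIN 1.42-fold (log2 0.51 ± 0.10, adjusted p = 0.002418, edgeR). The first call was lost, at adjusted p values of 0.01169 to 0.02195, without adenoma replicate 1 or 2 or sulindac-treated replicate 1 or 2, and under library size alone (log2 0.40, adjusted p = 0.0152, edgeR). The second was lost without sulindac-treated replicate 1 (adjusted p = 0.01196).

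Because longer transcripts collect more reads, the D cyclins were set against each other only per length of the longest transcript. On that scale Ccnd2 made up 64.4% ± 2.61 (SD, n = 3) of the D cyclin sum in MIN and Ccnd1 28.6% ± 1.32. In adenoma Ccnd1 made up 58.0% ± 5.65 and Ccnd2 36.5% ± 6.23, and after sulindac 53.4% ± 2.26 and 39.4% ± 2.60. Ccnd3 stayed between 4.7% and 8.0% in all 9 samples. The ratio of Ccnd1 to Ccnd2 was 0.469, 0.467 and 0.403 in MIN, 1.19, 1.69 and 2.02 in adenoma, and 1.23, 1.52 and 1.32 after sulindac. On this scale Ccnd2 was the more abundant of the pair in every MIN culture and Ccnd1 in every adenoma culture. These include adenoma replicates 1 and 2, whose differences by length ran opposite to those of replicate 3. Each such difference is taken against the other 2 cultures of the group. The order within the adenomas depends on the length scaling, while the difference between the groups does not. From CPM alone, the share of Ccnd1 was 18.5% to 20.5% in MIN, 39.7% to 51.3% in adenoma and 39.6% to 44.3% after sulindac, again without overlap with MIN, but Ccnd1 then exceeded Ccnd2 in adenoma replicate 3 only.

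**Figure D3:**
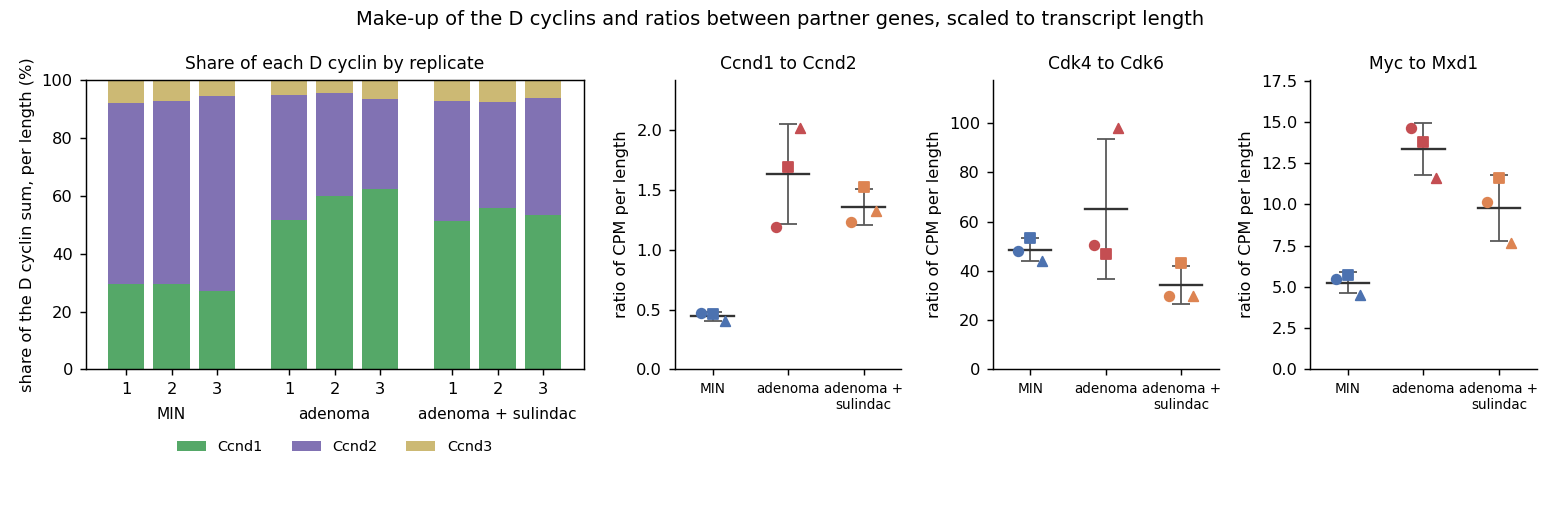
Left, the share (%) of each D cyclin in the sum of the 3, per transcript length, for every replicate: Ccnd2 is the largest part in MIN (62.6% to 67.4%) and Ccnd1 in adenoma (51.6% to 62.4%) and after sulindac (51.1% to 55.6%). Right, per-length ratios of Ccnd1 to Ccnd2, Cdk4 to Cdk6 and Myc to Mxd1 in every sample, with the mean (line) and SD (bars) of 3 replicates.

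Cdk4, the kinase partner with the most reads per length, fell in the sulindac-treated organoids. It had 303, 323 and 251 CPM in the MIN organoids, 334, 356 and 365 CPM in the adenomas, and 182, 231 and 167 CPM after sulindac. The treated cultures were the lowest 3 of the 9 and the untreated adenomas the highest 3, with no overlap between any groups. Sulindac-treated adenoma was 1.81-fold below adenoma (log2 -0.86 ± 0.12, adjusted p = 0.001611, edgeR) and 1.52-fold below MIN (log2 -0.60 ± 0.14, adjusted p = 0.005324, edgeR). The difference between adenoma and MIN, 0.27 ± 0.12, did not pass (adjusted p = 0.0982, edgeR). The call against adenoma was lost narrowly without sulindac-treated replicate 1 (adjusted p = 0.01043) or 3 (0.01087), and that against MIN without MIN replicate 1 (0.01774) or 2 (0.02076) or sulindac-treated replicate 1 (0.02317) or 3 (0.02503).

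Cdk6, the other kinase, had 35.3, 33.9 and 31.9 CPM in the MIN organoids, 37.2, 42.7 and 20.9 CPM in the adenomas and 34.4, 30.1 and 31.2 CPM after sulindac. Adenoma held both the highest and the lowest value, and no comparison passed (adjusted p = 0.993, 0.841 and 0.469, edgeR). The low value was again adenoma replicate 3, and without it the change against MIN was 0.25 (adjusted p = 0.0849, edgeR) and that with sulindac -0.33 (adjusted p = 0.04215, edgeR). Cdk6 also has the longest transcript of the 8 genes, 11525 bases against 2053 for Cdk4. Per length, Cdk4 exceeded Cdk6 by 44.2 to 53.4-fold in MIN, 46.8 to 98.0-fold in adenoma, where the top value was that of replicate 3, and 29.8 to 43.1-fold after sulindac. The treated cultures did not overlap with either other group in this ratio.

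Myc, the second textbook β-catenin target among these genes, passed in no comparison. It had 149.5, 169 and 175 CPM in the MIN organoids, 167, 142 and 149.9 CPM in the adenomas, and 183, 171 and 138 CPM after sulindac, and all groups overlapped. The log2 differences were -0.10 ± 0.11 between adenoma and MIN (adjusted p = 0.482, edgeR), 0.11 ± 0.13 between treated and untreated adenoma (adjusted p = 0.546, edgeR) and -0.01 ± 0.12 between treated adenoma and MIN (adjusted p = 0.970, edgeR). These differences and their errors bear on mRNA only, since Myc protein was not measured here.

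Mycn, a Myc paralog with the same Max partner, was seen in MIN alone, at low counts. Its counts were 74, 122 and 97 in the MIN replicates, or 1.80, 2.61 and 2.64 CPM, and 0 in each of the 6 adenoma libraries. The MIN mean was 27.7 times the mean floor of 3 counts per library in adenoma and 25.3 times that after sulindac. Both comparisons with MIN called Mycn lower (adjusted p = 4.939e-05 and 4.121e-05, edgeR). Mycn passed the low-count filter through MIN alone, so the direction of these calls was fixed in advance. With 0 counts in both, treated and untreated adenoma could not be compared. Itgam, a myeloid gene among the leukocyte markers, had counts of the same order in MIN. They were 148 to 159 in MIN, 4 to 13 in adenoma and 0 to 5 after sulindac. The defining leukocyte marker Ptprc had means of 0.00712 CPM in MIN, 0.151 CPM in adenoma and 0 after sulindac. The part of leukocytes in the Mycn counts was not tested.

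Mxd1, the Max partner that opposes Myc, had 54.5, 58.5 and 76.9 CPM in the MIN organoids, 22.8, 20.5 and 25.8 CPM in the adenomas, and 36.1, 29.4 and 36.04 CPM after sulindac. The groups did not overlap, with MIN highest, treated adenoma between and untreated adenoma lowest. It was 2.74-fold lower in adenoma than in MIN (log2 -1.46 ± 0.16, adjusted p = 8.767e-05, edgeR) and 1.87-fold lower after sulindac than in MIN (log2 -0.90 ± 0.15, adjusted p = 0.000694, edgeR). The difference between treated and untreated adenoma, 0.57 ± 0.13, missed the threshold (adjusted p = 0.01175, edgeR). It passed without adenoma replicate 3 (adjusted p = 0.006419), with RLE scaling (0.009933), without the filter (0.005853), with the replicate block (0.009878) and by the Wald test of DESeq2 (adjusted p = 0.000641). Under library size alone it did not pass, as 0 members were called higher there. Mxd1 and Mycn are high in the cultures that hold the enterocyte markers named above. The enterocyte sums had means of 6.01 CPM in adenoma and 5.82 CPM after sulindac, groups that did not overlap in Mxd1. The leukocyte and endothelial sums are higher in MIN too, mainly through Itgam and Pecam1. Ptprc had 4 to 8 counts in adenoma and 0 after sulindac. The part of any of those cells in either result was not tested. The per-length ratio of Myc to Mxd1 was 4.54 to 5.75 in MIN, 11.6 to 14.6 in adenoma and 7.64 to 11.6 after sulindac.

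**Figure D4:**
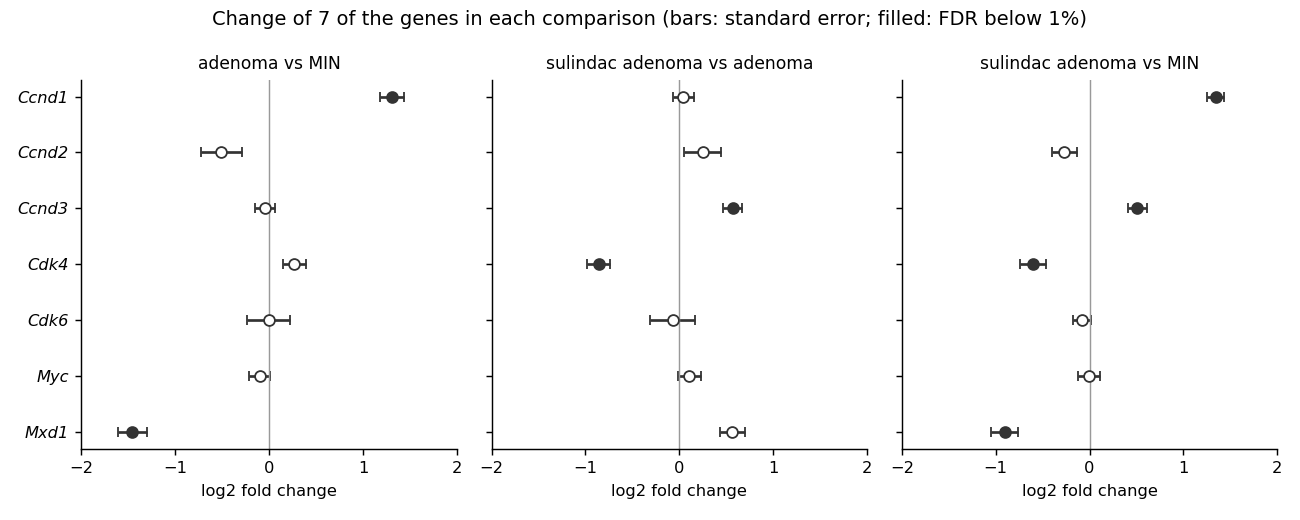
Log2 fold change (x axis) of 7 members (y axis) in each of the 3 comparisons, with the standard error as bars and filled points past an FDR of 1%. Ccnd1 and Mxd1 pass in both comparisons with MIN, and Cdk4 and Ccnd3 in both with the treated group. Mycn is left out because its adenoma counts are 0.

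Some reads of these genes could belong to a neighbour, since the counting is not stated to use strand. Of all 50-base stretches of Ccnd1 transcripts 21.6% also occur in transcripts of other genes, foremost Oraov1 (LTO1) on the opposite strand, and of Cdk4 17.0%, foremost Tspan31. For Ccnd3 the share was 5.39%, foremost Bysl, for Ccnd2 6.31% and for Cdk6 3.32%, and for Myc, Mycn and Mxd1 it was 0. Oraov1 had a mean of 12.4 CPM in the MIN organoids and 17.5 CPM in the adenomas, where Ccnd1 had 228 and 565 CPM. Like Ccnd1 it was higher in adenoma than in MIN (log2 0.50 ± 0.12, adjusted p = 0.009004, edgeR), and the part of shared reads in either was not tested. Tspan31 had 88.0 CPM in the adenomas and 95.8 CPM after sulindac and did not pass (log2 0.13 ± 0.10, adjusted p = 0.336, edgeR). Bysl was at 29.5 and 32.0 CPM in the same groups (log2 0.13 ± 0.10, adjusted p = 0.378, edgeR).

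Of 7 INK4 and CIP/KIP genes, the inhibitors of these kinases, 2 were higher and 2 lower in adenoma than in MIN and 3 did not pass, beside 18.5% of all genes tested higher and 20.1% lower. Cdkn2a, the INK4 locus gene that also encodes Arf, rose from 0.189 ± 0.0903 to 1.93 ± 0.299 CPM (SD, n = 3; adjusted p = 0.0001389, edgeR), and Cdkn2d rose by 0.88 on the log2 scale. Cdkn2b, the INK4 gene beside Cdkn2a, fell from 37.4 ± 8.01 to 16.8 ± 3.82 CPM (adjusted p = 0.001527, edgeR), and Cdkn1c was also lower in adenoma, at 3 to 8 counts where the MIN cultures had 72 to 106. With sulindac Cdkn2a fell to 0.745 ± 0.124 CPM (adjusted p = 0.005772, edgeR) and Cdkn2b rose to 35.6 ± 2.36 CPM (adjusted p = 0.001545, edgeR). The Cdkn2b call was lost without sulindac-treated replicate 3, and the Cdkn2a call without any 1 sample other than adenoma replicate 1. Cdkn1a, the CIP/KIP inhibitor induced by p53, did not pass in any comparison. Its log2 change was 0.31 in adenoma and 0.07 with sulindac.

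Among the 13 genes of the Rb and E2F families, 5 were lower in adenoma than in MIN, beside 20.1% of all genes. Rb1, the Rb gene itself, went from 152 ± 18.6 to 60.2 ± 4.54 CPM (adjusted p = 3.144e-05, edgeR), its relative Rbl1 fell by 0.83 and the activator E2f2 by 2.83 on the log2 scale, beside E2f4 and E2f8. Without MIN replicate 1, MIN replicate 2 or adenoma replicate 1, as under library size alone, 3 of the 5 passed. The counts of all genes lower in those settings are given with the Myc targets below. With sulindac E2f2 fell further, by 1.15, while E2f5 and E2f6 rose by 0.54 and 0.63. That is 1 of 13 lower, not above the 9.10% of all genes, and 2 of 13 higher, beside 8.32%. The count of 1 lower was 0 without any 1 sample other than adenoma replicate 3 and 2 without that one, and the 2 higher became 0 without sulindac-treated replicate 1 and 1 without adenoma replicate 1 or 2 or treated replicate 2 or 3, under library size alone and with the replicate block. Against MIN, 8 of the 13 were lower after sulindac, beside 26.8% of all genes. The count was 4 to 5 without MIN replicate 1 or 2 or sulindac-treated replicate 1 or 3. Of all genes, 3087 of 13721 and 2989 of 13765 were lower without MIN replicate 1 and 2. Without treated replicate 1 and 3 it was 3058 of 13867 and 2912 of 13840.

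Of the 11 later G1/S genes, Skp2, which directs the breakdown of the CDK inhibitor p27, fell by 1.10 and the S-phase cyclin Ccna2 by 0.59 on the log2 scale in adenoma, while Mnat1, a subunit of the CDK-activating kinase, rose by 0.93. These 2 lower and 1 higher of 11 are not above the shares of all genes, 20.1% and 18.5%. Only 1 of the falls passed without MIN replicate 1 or 2 or under library size alone. All genes lower in these settings are counted with the Myc targets below. Between treated and untreated adenoma edgeR called 0 of the 11, beside 8.32% of all genes higher and 9.10% lower. At an unadjusted p below 0.05, 5 were lower, DESeq2 called 2 lower, and edgeR called 2 lower without adenoma replicate 3 and 4 under library size alone. Under library size alone, 1983 of all 12962 genes were lower, and without adenoma replicate 3, 1488 of 13111. Against MIN, 5 were lower after sulindac, beside 26.8% of all genes, Skp2 by 1.64. The count was 2 to 3 without MIN replicate 1 or 2 or sulindac-treated replicate 1 or 3. All genes lower in these settings are counted with the Rb and E2F families above.

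In the network around Myc, 4 of 12 genes were higher and 3 lower in adenoma, beside 18.5% and 20.1% of all genes. Mycl, the third Myc paralog, rose from 54.5 ± 8.28 to 136 ± 42.5 CPM (adjusted p = 0.001173, edgeR), and the Max-binding repressors Mxd3, Mxd4 and Mxi1 rose by 1.18, 1.39 and 1.04 on the log2 scale, where Mxd1 fell. The lower ones were Mlx, which pairs with other partners of the same family, and its glucose-responsive partners Mlxip and Mlxipl, which fell by 1.00, 0.98 and 2.84. Max did not pass (log2 -0.02, adjusted p = 0.912, edgeR). With sulindac Mycl fell to 32.0 ± 10.98 CPM (log2 -2.08 ± 0.29, adjusted p = 0.001326, edgeR), below the mean of MIN, and Mxd3 fell by 0.93. Of these 2, 1 passed without adenoma replicate 2 or sulindac-treated replicate 1 or 3. Mlx rose by 0.48, a call that was lost without any 1 sample other than adenoma replicate 3, under library size alone and with the replicate block. These 2 lower and 1 higher of 12 stand beside 9.10% and 8.32% of all genes, and the 1 higher is close to that share.

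Genes known as targets of these factors were counted as well. Of 25 Myc targets, 7 were lower in adenoma than in MIN, with a median log2 change of -0.35, beside 20.1% and -0.01 over all genes. They included Odc1 (polyamine synthesis), Shmt2 (mitochondrial serine metabolism) and Hspd1 (a mitochondrial chaperone), which fell by 1.36, 1.29 and 1.04. The count was 8 with the replicate block and 12 without adenoma replicate 3 and by DESeq2. It was 4 without MIN replicate 2 or adenoma replicate 1 and under library size alone. It was 3 without MIN replicate 1 or adenoma replicate 2. Of all 13744 genes, 2765 were lower in the main fit, 2733 with the block and 2282 under library size alone. DESeq2 called 3383 of 18638 lower. Without MIN replicates 1, 2 and 3 in turn it was 2332 of 13897, 2238 of 13933 and 2677 of 13909. Without adenoma replicates 1, 2 and 3 in turn it was 2439 of 14091, 2375 of 14082 and 2762 of 14071. Between treated and untreated adenoma 1 target, the transferrin receptor gene Tfrc, was higher by 1.03, where 8.32% of all genes were higher, a call lost without adenoma replicate 2 or 3 or treated replicate 2 or 3, under library size alone and when blocking on the replicate number. None was lower by edgeR, where 9 had an unadjusted p below 0.05, DESeq2 called 1, and edgeR called 2 without adenoma replicate 3 and 2 under library size alone. Counts of all genes lower in those settings are given with the E2F targets below. Against MIN, 18 of 25 were lower after sulindac, with a median of -0.55, beside 26.8% and -0.03 over all genes. The count was 12 without sulindac-treated replicate 3, where 2912 of 13840 genes were lower. Myc mRNA itself did not pass in any of these comparisons.

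Of 20 E2F targets, which serve DNA replication, 4 were lower in adenoma than in MIN (median log2 change -0.29), a share close to the 20.1% of all genes, among them Tk1, Orc1 and Mybl2, by 1.03, 1.03 and 0.97. The count was 2 without MIN replicate 1 or 2 or adenoma replicate 3 and under library size alone. It was 6 with the replicate block and by DESeq2, and 7 without MIN replicate 3. All genes lower in these settings are counted with the Myc targets above. Sulindac-treated adenoma had 3 lower than untreated adenoma (median -0.64), beside 9.10% of all genes: the helicase subunits Mcm2 and Mcm3 and the thymidylate synthase gene Tyms, by 0.86, 0.79 and 0.79. This count was 1 without adenoma replicate 2 or treated replicate 1 or 3, 7 without treated replicate 2, 9 without adenoma replicate 3, 8 with the replicate block, 10 under library size alone and 11 by DESeq2. The count over all genes moved with the setting too. Of 12962 genes, 1179 were lower in the main fit, 1061 with the block and 1983 under library size alone. Without adenoma replicate 3 it was 1488 of 13111, and DESeq2 called 1738 of 17786 lower. Against MIN, 16 of 20 were lower after sulindac (median -0.99), beside 26.8% of all genes, or 10 without sulindac-treated replicate 3, led by Mybl2, Orc1 and Uhrf1, which fell by 1.58, 1.49 and 1.44. Cdk4 was lower in the same treated cultures.

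Wnt/β-catenin targets were the list in which most members rose in adenoma, 10 of 13, with a median log2 change of 1.42, beside 18.5% of all genes. With the replicate block 9 were higher, as Ephb3 no longer passed (adjusted p = 0.01895, edgeR). Leaving out 1 sample gave 9 to 10 higher, beside 1885 to 2441 of all genes. The feedback inhibitors Notum and Nkd1 went from 0.701 to 354 CPM and from 2.61 to 745 CPM, and Lef1 rose by 4.77 on the log2 scale, while the stem cell receptor gene Lgr5 fell by 1.10. With sulindac 3 of 13 were lower (median -0.58), beside 9.10% of all genes, Notum by 1.08, Ephb3 by 0.80 and Tcf7 by 0.62, and 5 were lower with the replicate block and 7 under library size alone and by DESeq2. The counts of all genes lower in those settings are given with the E2F targets. Leaving out 1 sample gave 2 to 4 lower, beside 386 to 1488 of all genes. Ccnd1, another target of the pathway, differed by 0.04 ± 0.11 on the log2 scale between the same groups and did not pass.

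**Figure D5:**
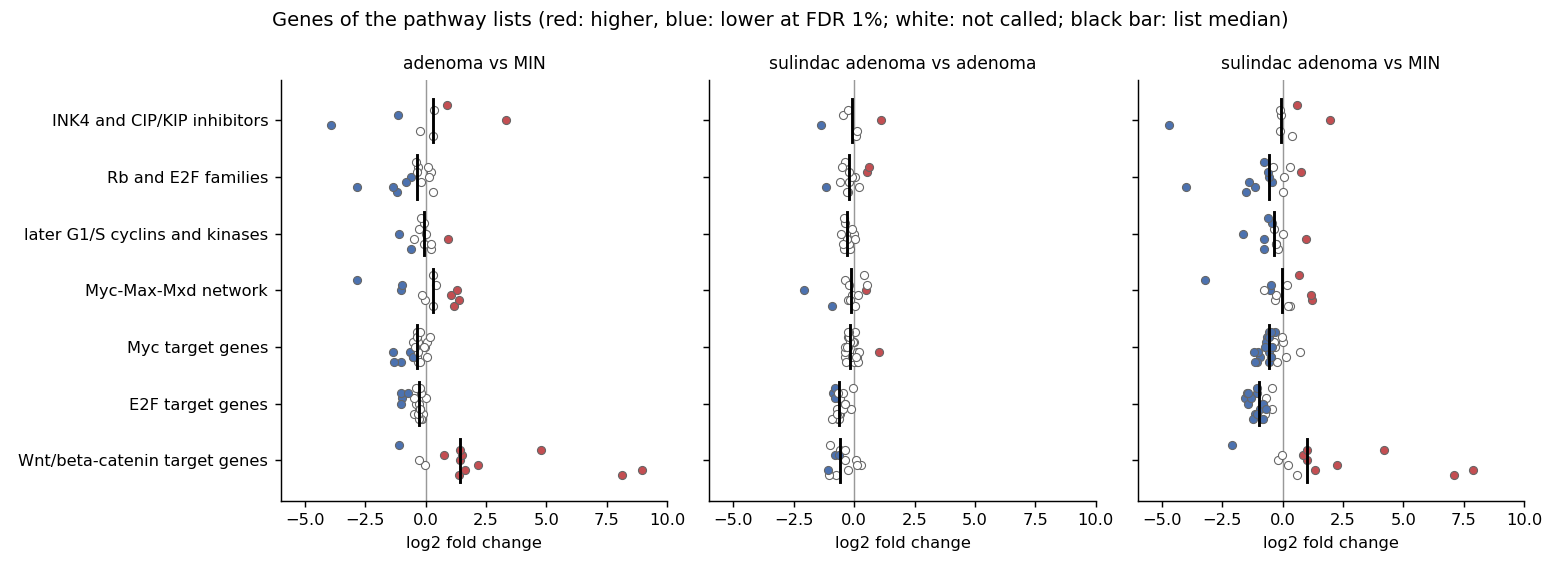
Log2 fold change (x axis) of every tested gene of 7 pathway lists (y axis) in the 3 comparisons, red where higher and blue where lower at an FDR of 1%, with the list median as a black bar. The median of the E2F targets is -0.29, -0.64 and -0.99 from left to right, and that of the Wnt/β-catenin targets 1.42, -0.58 and 1.01.

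The genes whose pattern over the 9 samples was most like that of each member were found by Pearson's r of log2(CPM + 0.5) among 13891 genes. The points share 3 groups and are described without a test. Ccnd1 was closest to Tnks2, a tankyrase gene (r = 0.995), with Erich1 and Cdh13 next. Cdk4 was closest to Trp53, the gene of p53 (r = 0.994), ahead of Rbmxl1 and Mnd1. Trp53 had a mean of 109 CPM in the MIN organoids, 126 CPM in the adenomas and 73.5 CPM after sulindac. It was picked for its likeness to Cdk4 in these same samples, so its lower mean after sulindac is no separate result. Ccnd3 was closest to Prkcz (r = 0.985), Mxd1 to Sdcbp2 (0.992) and Mycn to Ky (0.999), a gene with 131 to 198 counts in MIN and 0 in the 6 adenoma libraries, as for Mycn. Ccnd2 and Cdk6, the members that were low in adenoma replicate 3, were closest to Ankrd28 (0.955) and Arid5b (0.966). For Myc the highest value was lower, 0.841 with Cenpb.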

How the data were processed

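RNA-seq of 9 organoid samples was analysed from 1 table of raw counts per gene symbol, deposited by the authors without normalization. The submitters' processing notes name Bowtie2 2.2.4, RSEM and the mm9 build, and the values are whole numbers. MIN replicate 1 is given as 2 runs and a further column equal to their sum in all 23955 rows, and the sum was used as 1 sample. In 27 rows a date stands in place of the symbol.

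Counts were filtered (filterByExpr), TMM-normalized and compared with edgeR 4.0.16 in R 4.3.3 (glmQLFit with robust estimation, glmQLFTest), fitting only the 2 groups compared, with Benjamini-Hochberg adjustment over all genes tested and an FDR of 1%. The SE was derived from the fold change and the F statistic (|log2 fold change| / √F). The alternatives tried were DESeq2 1.42.0, an FDR of 5%, RLE scaling, scaling by library size alone, dropping the filter or asking for 10 counts in every sample, fitting the 9 samples jointly, blocking on replicate number, and omitting each sample in turn. List counts without each sample were added after the data were seen. Tested on simulated counts with 200 changed genes, the script recovered 72.5% for adenoma against MIN (13744 genes, 3 false calls) and 87.5% for treated against untreated adenoma (12962 genes, 8 false calls). The real comparison of adenoma with MIN called far more genes, 2549 higher and 2765 lower. Changes below 1 on the log2 scale, such as those of Ccnd3 and Cdk4, were not planted, so their recovery was not measured.

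The genes and lists were chosen with earlier results of these data known. All 8 genes are named, with genes of the 4 regulator lists, up to 3 called targets per list, direction and comparison by size of change, the 3 most alike genes and the markers. The values of Oraov1, Tspan31 and Bysl were added after the sequence sharing was seen. Sharing of 50-base stretches and transcript lengths come from GENCODE M21, and the scaling uses the longest transcript. MIN and adenoma samples of the same number shared a small part of their deviation from the group means (r = 0.125, 0.114 and 0.192 across genes). This is a hint of pairing from the data only, since the labels give no shared source. The p-values in the text come from unpaired fits unless the replicate block is named. The block changed the call of none of the 8 genes in that comparison, and its list counts stand in the text where they differ for the target lists. Counting error enters the SEs and p-values through the fitted count models. For the CPM values it is covered by the floor only. No column was left out.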

Additional observations from a re-analysis of the deposited data

How the results depend on the processing

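Over all alternatives the log2 fold changes of the 8 genes kept direction and side of the threshold in 266 of the values computed, lost the call in 13, gained it in 5 and changed sign in 13, the last only for genes not called. With at least 10 counts in every sample, 1 member was lower in adenoma than MIN, because Mycn is then not tested. For sulindac-treated against untreated adenoma, 2 members were higher with RLE size factors, without a filter, by DESeq2 and at an FDR of 5%, and 0 under library size alone. Leaving out 1 sample gave 0 to 2 higher and 0 to 1 lower there, and 1 to 2 higher against MIN. Over all genes in that comparison, library size alone gave 603 higher and 1983 lower, DESeq2 gave 1775 higher, an FDR of 5% gave 2034 and 2374, and leaving out 1 sample gave 423 to 1403 higher and 386 to 1488 lower. The causes were not tested. Under library size alone the change of Ccnd3 in adenoma was 0.084, of Cdk6 0.14 and of Myc 0.034, and with sulindac that of Ccnd1 was -0.13 and of Myc -0.060. Leaving out 1 sample, Cdk6 ranged from -0.21 to 0.25 in adenoma and from -0.33 to 0.14 with sulindac, Ccnd1 from -0.025 to 0.14 with sulindac, and Myc from -0.10 to 0.11 between treated adenoma and MIN.

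With the replicate block, which no shared source stands behind for the treated samples (r = 0.260, 0.213 and -0.0768 with adenoma, and -0.0312, 0.404 and 0.258 with MIN), Ccnd3 had an adjusted p of 0.01135 and Mxd1 of 0.009878 for treated against untreated adenoma, and 872 genes were higher and 1061 lower. In that fit 8 E2F targets and 5 Wnt/β-catenin targets were lower, and the calls of E2f5, Tfrc and Mlx were lost. It changed no other member's call. Between treated adenoma and MIN it gave 20 E2F targets lower in place of 16, and 19 Myc targets in place of 18. Of all 13551 genes, 3791 were lower there in place of 3625. With a pseudocount of 2, Mycn kept 1 of its 3 most alike genes, Ccnd1 and Mxd1 kept 2 and the others 3.

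Depth limits Mycn, at 74 to 122 counts in MIN, and Cdkn2a and Cdkn1c, while the other members had at least 723 counts in every sample.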
